A study of Mus musculus with 9 samples.

Results

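The 9 genes described here are textbook markers of striatal medium spiny neurons: the receptor genes Drd1, Drd2 and Adora2a, the neuropeptide precursor genes Tac1, Pdyn and Penk, and the signalling genes Ppp1r1b, Rgs9 and Pde10a. They were chosen by name as markers of this cell type, with earlier results of these data known. All 9 were found among the 18138 genes of the deposited count table. All 9 passed the filter on low counts that left 14756 genes for testing. RNA sequencing was done on brain tissue of mice in 3 groups of 3 libraries: a control group, a group with middle cerebral artery occlusion (MCAO, a blockage of the main artery feeding the side of the forebrain that models stroke), and a group given hypidone (hypidone hydrochloride, code name YL-0919) at 5 mg/kg for 7 days after MCAO. The libraries are named here by group and by the number in their titles: control 4, 5 and 6, MCAO 4, 5 and 6, and hypidone 2, 7 and 8. The brain region, hemisphere, strain, age, any sham operation or vehicle, and whether each library came from a separate animal are details that the labels do not state. The p-values therefore measure the spread between these libraries, which may be technical. Library totals were close, from 32075682 to 37325027 counts.

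Medium spiny neurons are GABAergic projection neurons and make up most of the striatum. Cells of the direct pathway carry the dopamine receptor encoded by Drd1, which raises cyclic AMP (cAMP), and make substance P from Tac1 and dynorphin from Pdyn. Cells of the indirect pathway carry the receptor encoded by Drd2, which lowers cAMP, together with the adenosine receptor of Adora2a, and make enkephalin from Penk. Both classes express DARPP-32 (Ppp1r1b), a protein that inhibits a phosphatase once protein kinase A has phosphorylated it, as well as Rgs9, which speeds the shut-off of G proteins, and Pde10a, which breaks down cyclic nucleotides. None of the 3 peptide genes is restricted to the striatum: cortical neurons also express Penk, Tac1 and Pdyn, and Ppp1r1b is made in deep cortical layers.

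The levels went against reading the 9 genes as a readout of striatal neurons. Drd2, a defining gene of the indirect class, had 11 to 93 counts per library, at most 0.899 FPKM (fragments scaled to gene length and library depth), and Adora2a had 22 to 72 counts and at most 0.687 FPKM. Drd3 had 3 counts over all 9 libraries, and the transcription factor gene Six3 had 10. Slc35d3 and Gpr6, further markers of the direct and the indirect class, had 6 to 21 and 21 to 58 counts per library. By contrast Slc17a7, the vesicular glutamate transporter gene of cortical excitatory neurons, lay between 414 and 658 FPKM. The genes are therefore treated below as a named list, not as a measure of striatal tissue.

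**Figure D1:**
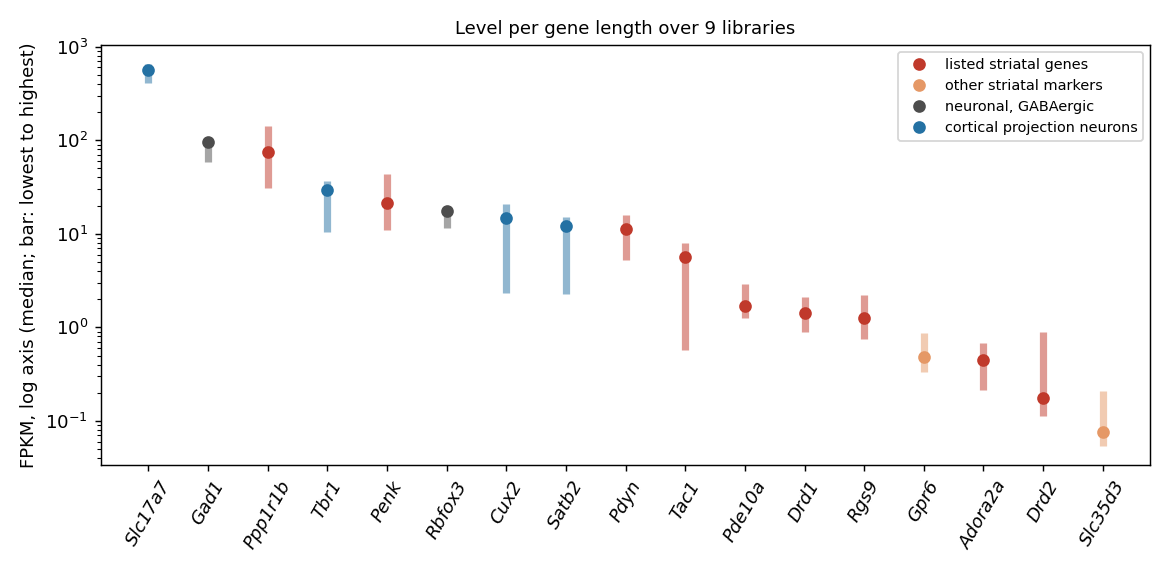
Level per gene length (FPKM, log axis) of the 9 listed genes, of 2 other striatal markers and of neuronal and cortical genes; points are medians over 9 libraries and bars run from the lowest to the highest library. Drd2 and Adora2a lie below 1 FPKM in every library, while Slc17a7 lies above 400.

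Within the list, the order of levels per gene length was read in the control libraries. Ppp1r1b had the highest mean at 59.1 FPKM ± 24.6 (SD, n = 3), followed by Penk at 27.2 ± 5.33, Pdyn at 8.90 ± 3.21 and Tac1 at 6.44 ± 0.707. Pde10a at 2.15 ± 0.714, Drd1 at 1.50 ± 0.571 and Rgs9 at 1.14 ± 0.451 came next, and Drd2 at 0.428 ± 0.408 and Adora2a at 0.427 ± 0.0846 came last. The control ranges separated Penk from Pdyn and Tac1 from Pde10a. Every other pair of neighbours in this order overlapped, including Ppp1r1b with Penk, because control 5 had 30.8 FPKM of Ppp1r1b. The order depends on the gene lengths that the FPKM values imply. These were 23437 bases for Pde10a and 8665 for Rgs9, and 1326 to 3581 for the rest. Comparisons between libraries below use library-size-scaled counts (CPM, with TMM factors). Without division by length, Pde10a had a control mean of 50.8 CPM and Penk 43.9.

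Several libraries stood apart in ways that touch these genes. Control 5 lay above the other 8 libraries for Drd2 (2.53 CPM against 0.322 to 0.687) and Pde10a (68.3 against 29.9 to 47.2). It lay below them for Ppp1r1b (64.5 against 131 to 321) and Pdyn (13.3 against 20.1 to 43.1). The share of all genes for which control 5 lay outside the others was not computed. In the same library 8 hippocampal marker genes summed to 673 CPM against 47.8 to 78.7 elsewhere, and 5 choroid plexus genes to 192 against 1.26 to 10.7. Among the MCAO libraries, 8 marker genes of activated microglia and macrophages, led by Spp1, summed to 6635 CPM in MCAO 5 but to 607 in library 6 and 95.02 in library 4 of that group. The control libraries held 43.5 to 46.1 and the hypidone libraries 61.5 to 92.8. Reactive astrocyte genes, led by Gfap, summed to 184 to 791 CPM in control, 738 to 4718 in MCAO and 384 to 643 in hypidone libraries. The 8 pan-neuronal genes, led by Snap25, summed to 6943 to 11280 CPM in control, 4750 to 9247 in MCAO and 9587 to 11000 in hypidone libraries.

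Comparing MCAO with control asks which of these transcripts differ after the artery blockage. Tac1, the precursor gene of substance P and neurokinin A, fell. It had 7.67, 8.83 and 9.44 CPM in control 4, 5 and 6, and 2.99, 0.703 and 1.87 CPM in MCAO 4, 5 and 6. In hypidone 2, 7 and 8 it had 10.6, 8.71 and 5.89 CPM. Every MCAO library was below all 6 others, and control and hypidone libraries overlapped. The mean was 8.64 CPM ± 0.899 (SD, n = 3) in control, 1.85 ± 1.14 in MCAO and 8.39 ± 2.36 in hypidone libraries. The edgeR quasi-likelihood log2 fold change of MCAO against control was -2.22 ± 0.46 (SE; 95% interval -3.27 to -1.18; adjusted p = 0.0137). Of the 9 genes, 1 passed the adjusted threshold of 0.05 here and it was lower, beside 20.4% of all genes tested, 10.6% being higher and 9.81% lower, so the share in the list is not above that of all genes. Without MCAO 6 the Tac1 difference no longer passed (adjusted p = 0.0518), nor in the fit of only these 2 groups (0.0539). These fits called 8.78% and 4.71% of all genes tested. Bulk tissue cannot tell fewer cells of a type from less RNA per cell.

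Penk, the enkephalin precursor gene, was lower in every MCAO library than in any control library but did not pass the threshold. Control 4, 5 and 6 had 50.4, 33.4 and 48.1 CPM, MCAO 4, 5 and 6 had 28.0, 16.2 and 24.5, and hypidone 2, 7 and 8 had 32.8, 69.7 and 67.3. The log2 difference of MCAO from control was -0.94 ± 0.31 (edgeR adjusted p = 0.0618), with an interval of -1.65 to -0.23. Tac1 and Penk were the members whose MCAO libraries all lay below control, while 17.0% of all genes tested did so. Penk passed without control 5 (adjusted p = 0.0489), without MCAO 4 (0.0485), without hypidone 2 (0.0400) with DESeq2 (0.0220) and with voom (0.0172). Without MCAO 5 its log2 difference was -0.72 (0.137), and over all 16 alternatives the adjusted p ran from 0.0172 to 0.164.

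Hypidone against MCAO compares libraries with and without the compound after the occlusion. In this comparison Tac1 and Penk were both higher and passed the test. Tac1 differed by 2.18 ± 0.46 on the log2 scale (95% interval 1.14 to 3.22; edgeR adjusted p = 0.0170), and Penk by 1.30 ± 0.32 (0.59 to 2.02; adjusted p = 0.0256). All 3 hypidone libraries were above all 3 MCAO libraries for both genes, although hypidone 2 was much lower than the other two for Penk. Of the 9 genes, 2 were called and both were higher, beside 16.5% of all genes tested, 8.23% being higher and 8.28% lower. The groups did not overlap in the higher direction for 20.9% of all genes and for these 2 members. Both comparisons share the 3 MCAO libraries, so opposite signs in them are not independent evidence. Tac1 was no longer called without MCAO 6 (adjusted p = 0.0666), hypidone 2 (0.0701) or hypidone 7 (0.0607). Penk was no longer called without MCAO 6 (0.0803), hypidone 7 (0.0958) or hypidone 8 (0.0978). The fits without MCAO 6, hypidone 2, hypidone 7 and hypidone 8 called 4.88%, 3.96%, 3.89% and 3.65% of all genes tested.

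**Figure D2:**
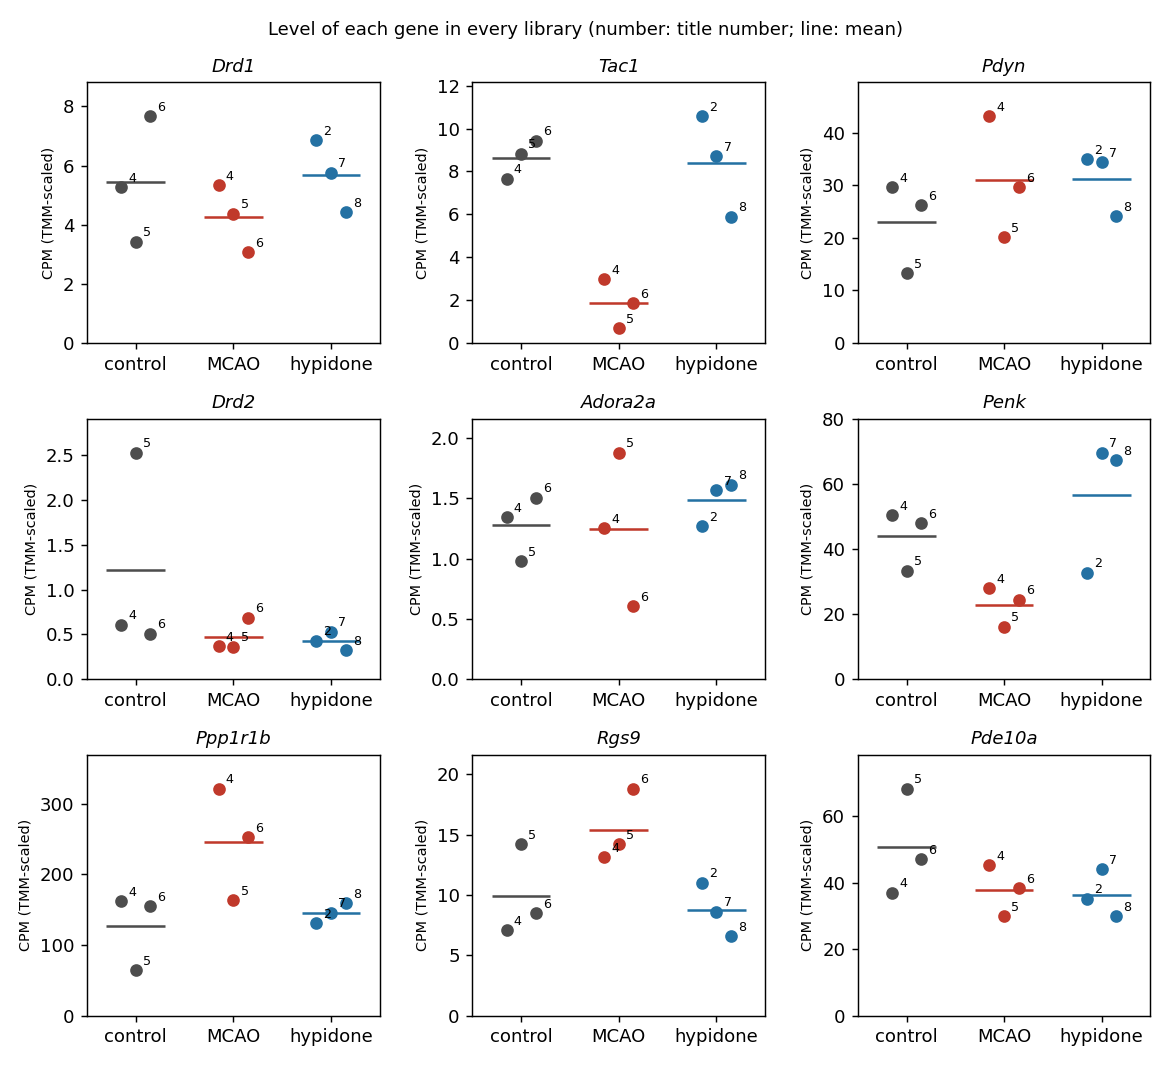
Level of each of the 9 genes in every library (TMM-scaled CPM; points are libraries with their title numbers, lines are group means). For Tac1 the 3 MCAO libraries sit between 0.703 and 2.99 CPM, below all others, and control 5 stands apart for Drd2, Pde10a and Ppp1r1b.

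Other cell markers moved with these peptides. The striatal interneuron list, which holds 8 genes and is led by Sst (a gene that cortical interneurons also express), summed to 539 to 684 CPM in control, 249 to 380 in MCAO and 544 to 658 in hypidone libraries. Its cholinergic genes were near 0, with 2 to 12 counts of Chat and 0 to 18 of Slc5a7 per library. Blood genes, a list of 5 led by Hbb-bs, summed to 46.2, 41.9 and 72.8 CPM in control 4, 5 and 6, 7.11, 28.0 and 4.31 in MCAO 4, 5 and 6, and 71.3, 184 and 187 in hypidone 2, 7 and 8. All 5 were called higher in hypidone than in MCAO libraries, and hypidone 2 was the lowest of its group both for blood genes and for Penk. The part of these marker shifts in the Tac1 and Penk differences was not tested.

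The position of the Tac1 transcript and the bases before its start are shown because Tac1 had the lowest adjusted p of the 9 genes. In the GENCODE annotation of GRCm38, the same assembly as mm10, Tac1 lies on the plus strand of chromosome 6 from 7554879 to 7565834, and the RefSeq start used here lies inside that span. Pdyn lies on the minus strand of chromosome 2 from 129686565 to 129699844, Penk on the minus strand of chromosome 4 from 4133531 to 4138819, and Ppp1r1b on the plus strand of chromosome 11 from 98348404 to 98357796. RefSeq's GRCm38.p6 promoter table holds an entry for 6 of the 9 genes, without Penk, Adora2a and Ppp1r1b. A promoter entry of Pdyn, the other peptide gene of the direct class, is printed as well. Whether matches go with differences in level was not tested. The start of this entry lies outside the GENCODE span, and the bases just after it are in no GENCODE transcript of Pdyn. Another Pdyn entry, chr2:129698659-129698908, is not printed. The bases just after its start are in such a transcript. Capitals mark CGTCA, which is the reverse complement of TGACG, the core of the cAMP response element. Both strands were searched over the 250 bases before each start, and TGACG in either orientation occurs in 17.8% of 32851 RefSeq promoters of the same length.
Tac1 distal match, chr6:7554811-7554878, plus strand: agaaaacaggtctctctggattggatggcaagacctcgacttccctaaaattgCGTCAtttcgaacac
Tac1 proximal match, chr6:7555006-7555035, plus strand: gctctacaggctCGTCAcgcctgagataaa
Pdyn, chr2:129699939-129700188, minus strand: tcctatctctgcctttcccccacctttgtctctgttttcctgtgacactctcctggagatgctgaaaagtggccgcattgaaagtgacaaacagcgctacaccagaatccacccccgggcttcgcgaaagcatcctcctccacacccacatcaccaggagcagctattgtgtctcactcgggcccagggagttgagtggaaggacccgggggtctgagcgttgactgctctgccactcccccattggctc
The Tac1 matches lie at -197 to -193 and -43 to -39 from the RefSeq start. The printed Pdyn window holds none, and neither do the windows of the other members with an entry. A match describes letters in a window and not a site in use.

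Pdyn, which encodes dynorphin, ran from 13.3 to 29.6 CPM in control, from 20.1 to 43.1 in MCAO and from 24.1 to 35.0 in hypidone libraries, and the 3 ranges overlapped. Its log2 difference of MCAO from control was 0.43 (95% interval -0.35 to 1.20) and of hypidone from MCAO 0.01 (-0.76 to 0.78), and neither passed. Tac1 and Pdyn, both assigned to the direct class, thus had estimates of opposite sign after MCAO, a difference between genes that was not tested by the model.

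The receptor genes were low, and none passed the edgeR test in any comparison. Drd1 ran from 3.42 to 7.66 CPM in control, 3.08 to 5.35 in MCAO and 4.42 to 6.85 in hypidone libraries, and its log2 difference of MCAO from control was -0.35 with an interval of -1.14 to 0.43. Drd2 had 19, 93 and 17 counts in control 4, 5 and 6, 13, 14 and 25 in MCAO 4, 5 and 6, and 15, 18 and 11 in hypidone 2, 7 and 8. Its log2 difference of -1.36 between MCAO and control (interval -2.87 to 0.15) was -0.24 without control 5 (adjusted p = 0.766) and 0.05 under voom with quality weights (adjusted p = 0.934), and the other 2 control libraries lay within the MCAO range. Adora2a, whose receptor is blocked by caffeine, ran from 0.604 to 1.88 CPM over all libraries, and the interval of its MCAO difference, -1.04 to 0.98, reaches about 1 in either direction on the log2 scale. Under voom with quality weights Adora2a was called in MCAO against control (-1.02, adjusted p = 0.0315) and in hypidone against MCAO (1.13, adjusted p = 0.0135). The same fit called Drd1 (-0.94, adjusted p = 0.0212, and 0.76, adjusted p = 0.0398), and it called 50.3% and 51.7% of all genes in these comparisons.

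Ppp1r1b was higher in every MCAO library than in any control library, but did not pass. Control 4, 5 and 6 had 162, 64.5 and 155 CPM, MCAO 4, 5 and 6 had 321, 163 and 253, and hypidone 2, 7 and 8 had 131, 146 and 159. MCAO 5 and control 4 differed by little, so the separation of these groups was narrow. The log2 difference was 0.95 ± 0.35 for MCAO against control (edgeR adjusted p = 0.0790) and -0.76 ± 0.34 for hypidone against MCAO (adjusted p = 0.151). Groups that do not overlap in the higher direction made up 16.5% of all genes for MCAO against control, and 19.0% in the lower direction for hypidone against MCAO. DESeq2 called the first difference (adjusted p = 0.0276), as did voom (0.75, adjusted p = 0.00731), and edgeR did so without MCAO 5 (1.20, adjusted p = 0.0354). Without control 5, the library low for this gene, the first difference was 0.63 (adjusted p = 0.110), and without MCAO 4 it was 0.71 (0.172). The second passed without control 5 (0.0462) and with voom (0.00365), and was -0.51 without MCAO 4 (0.319). An antisense gene, 1700003D09Rik, overlaps exons of Ppp1r1b, and the labels do not say whether counting used the strand. The same holds for Penk and A830012C17Rik.

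Rgs9 had 7.09, 14.2 and 8.47 CPM in control 4, 5 and 6, 13.1, 14.2 and 18.8 in MCAO 4, 5 and 6, and 11.0, 8.62 and 6.56 in hypidone 2, 7 and 8. Control 5 overlapped the MCAO libraries, and every hypidone library was below them. The log2 difference was 0.63 ± 0.30 for MCAO against control (edgeR adjusted p = 0.159) and -0.82 ± 0.30 for hypidone against MCAO (adjusted p = 0.0893). Without control 5 both passed, at 0.0410 and 0.0438, and with voom at 0.00154 and 0.000745, while DESeq2 called the second (0.0470). Over all alternatives the adjusted p reached 0.396 for the first, without MCAO 6, and 0.260 for the second, without hypidone 8. Pde10a ran from 36.99 to 68.27 CPM in control, 29.9 to 45.3 in MCAO and 29.9 to 44.2 in hypidone libraries, and its differences of -0.43 and -0.05 did not pass.

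**Figure D3:**
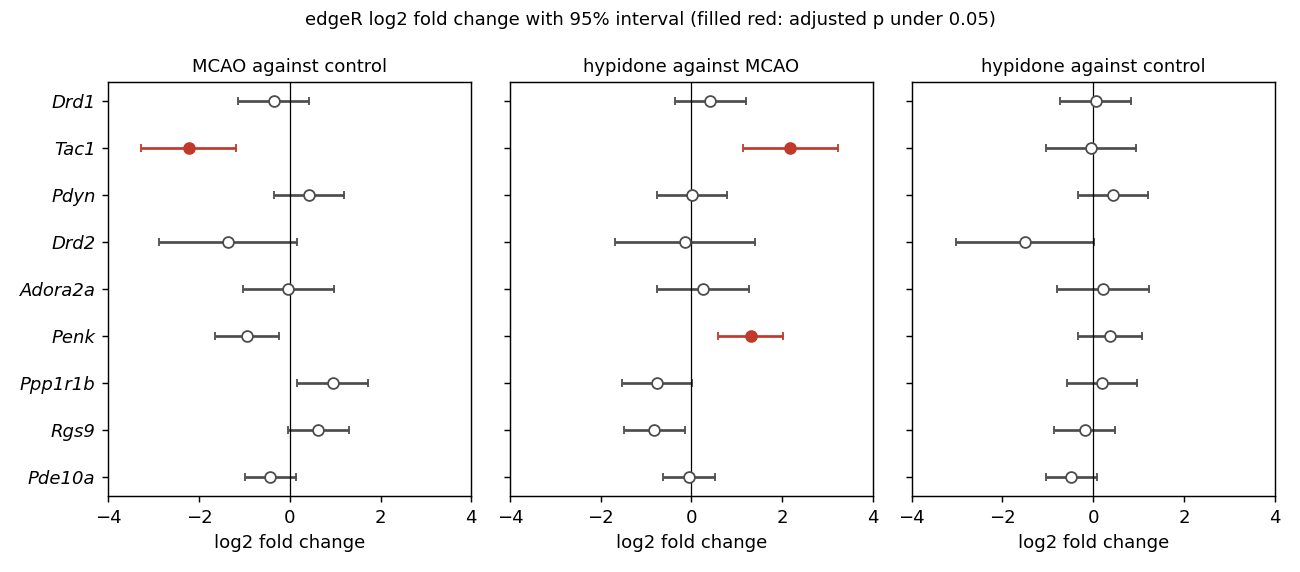
edgeR log2 fold change of the 9 genes with 95% intervals in the 3 comparisons; filled red points passed an adjusted p of 0.05. Tac1 is called at -2.22 and 2.18 and Penk at 1.30, and no gene is called in hypidone against control.

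Levels were also set against the sum of the 8 pan-neuronal genes in each library, a scaling chosen after the values were seen. All 8 had estimates below 0 in MCAO against control, and Snap25, the largest, ran from 1706 to 5637 CPM. Per 10000 pan-neuronal CPM, Ppp1r1b had 144, 92.9 and 138 in control, 347, 344 and 394 in MCAO, and 129, 152 and 145 in hypidone libraries. Tac1 had 6.79, 12.7 and 8.42 in control, 3.23, 1.48 and 2.91 in MCAO, and 10.4, 9.08 and 5.35 in hypidone libraries. On this scale the fold of MCAO against control, taken from mean log2 values, was 2.95 for Ppp1r1b and 0.268 for Tac1. The edgeR folds without this scaling were 1.93 and 0.214. The part of the lower pan-neuronal sum in the scaled folds was not tested. Control and MCAO libraries did not overlap for either gene. Penk was closer, with a fold of 0.754 against control, and hypidone 2 lay inside the MCAO range of 30.3 to 38.2. The ratio of Ppp1r1b to Penk in FPKM was 2.42, 1.46 and 2.43 in control 4, 5 and 6, 8.64, 7.60 and 7.78 in MCAO 4, 5 and 6, and 3.01, 1.58 and 1.78 in hypidone 2, 7 and 8. For the ratio and for these scaled levels of Ppp1r1b and Tac1, the exact two-sided permutation p of MCAO against control was 0.1, the smallest that 3 against 3 libraries can give. Relative to the sum of these pan-neuronal genes, every MCAO library was thus below every control library for Tac1 and above every one for Ppp1r1b.

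**Figure D4:**
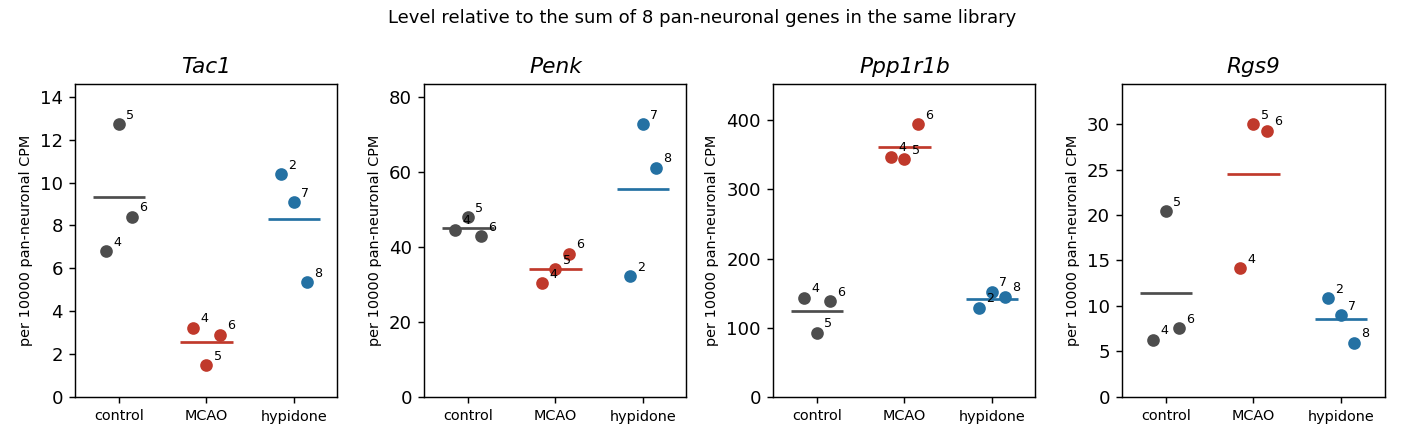
Levels of Tac1, Penk, Ppp1r1b and Rgs9 per 10000 CPM of 8 pan-neuronal genes in the same library; points are libraries with title numbers and lines are group means. Ppp1r1b sits between 344 and 394 in MCAO libraries and at most 152 in the others.

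Hypidone against control showed no member past the threshold, with every adjusted p at 1, and 0 of the 9 genes had an unadjusted p under 0.05. All 9 overlapped between these groups, while 3.86% of all genes lay wholly higher and 2.71% wholly lower. By edgeR 0 of all genes tested were called (0.0%), with 131 at an unadjusted p under 0.05 (0.888%), and DESeq2 called 1 gene, which was not a member. The log2 difference was -0.04 for Tac1 (95% interval -1.03 to 0.94), 0.37 for Penk (-0.34 to 1.07) and 0.19 for Ppp1r1b (-0.58 to 0.97). These intervals leave room for differences of up to about 1 on the log2 scale, so the groups are not shown to be alike.

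In 5 lists of pathway genes that are no members, 67 genes were tested. In MCAO against control 1 was higher and 8 were lower, and in hypidone against MCAO 8 were higher and 1 was lower, which is 13.4% of the 67 each time, below the share of all genes. Among the 22 genes that link dopamine and adenosine receptors to cAMP, 1 rose and 5 fell after MCAO. This was 27.3%, beside 20.4% of all genes tested. Their median log2 difference was -0.36 against 0.01 for all genes. Gnb5 and Rgs7bp, which encode binding partners of the Rgs9 protein, fell by 0.95 ± 0.17 (edgeR adjusted p = 0.00908) and 0.99 ± 0.15 (adjusted p = 0.00548), while Rgs9 itself was estimated at 0.63. Both were higher in hypidone than in MCAO libraries, by 0.96 (adjusted p = 0.0103) and 1.04 (adjusted p = 0.00570). Prkar2b, a regulatory subunit of protein kinase A, and Cdk5r1, an activator of the kinase that phosphorylates DARPP-32 at another residue, fell by 1.14 (adjusted p = 0.0265) and 0.78 (0.0245). Gnal, the G protein subunit that couples the receptors of Drd1 and Adora2a to cAMP, fell by 0.64 (0.0398). Pde4b, a cAMP phosphodiesterase, rose by 0.74 (0.0407). The Gnal and Pde4b calls were each lost in 10 of 16 alternative analyses, and those of Prkar2b and Cdk5r1 in 6 and 5, among them those without MCAO 6, control 4 and control 6. In hypidone against MCAO 5 of the 22 were higher and 1 was lower (27.3%, beside 16.5% of all genes tested). Prkar2b, Cdk5r1 and Gnal were higher by 1.29, 0.93 and 0.68 (edgeR adjusted p = 0.0207, 0.0162 and 0.0373). The lower gene was Ppp1cc at -0.36 (0.0440), called in 6 of 15 alternatives, and Pde4b was not called there (0.0955).

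Pcsk1, which encodes an enzyme that cuts peptide precursors such as proenkephalin, was the 1 gene of 10 in the peptide processing list called by edgeR. It fell by 2.00 ± 0.41 after MCAO (edgeR adjusted p = 0.0125) and was higher by 2.37 ± 0.41 in hypidone than in MCAO libraries (adjusted p = 0.00947). The first call was lost without MCAO 6, with only the 2 groups compared and with a replicate block. The second held in all 15 alternatives. Among 19 tested signalling genes of striatal projection neurons, Tmem158 fell after MCAO by 0.83 (adjusted p = 0.00601). In hypidone against MCAO, Tmem158 was higher by 0.83 (adjusted p = 0.00673) and Chrm4, a muscarinic receptor gene, by 1.17 (0.0314), the latter call being lost without MCAO 5 or 6 or without any hypidone library. Of 10 tested transcription factor genes, 0 were called by edgeR in either comparison, with 3 and 1 at an unadjusted p under 0.05, a threshold that 36.8% and 34.9% of all genes passed. With DESeq2 Rxrg and Bcl11b passed in MCAO against control (adjusted p = 0.0292 and 0.0398). Control 5 was far above the other libraries for both, with 136 CPM of Bcl11b against 24.7 and 36.0 in the other controls and 6.33 CPM of Rxrg against 1.79 and 1.74. Without control 5 the edgeR log2 difference went from -1.34 to -0.23 for Bcl11b and from -1.69 to -0.79 for Rxrg. Among 6 opioid and tachykinin receptor genes, Tacr3, a tachykinin receptor gene, fell by 2.46 ± 0.71 (adjusted p = 0.0393), a call lost in 10 of 16 alternatives.

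**Figure D5:**
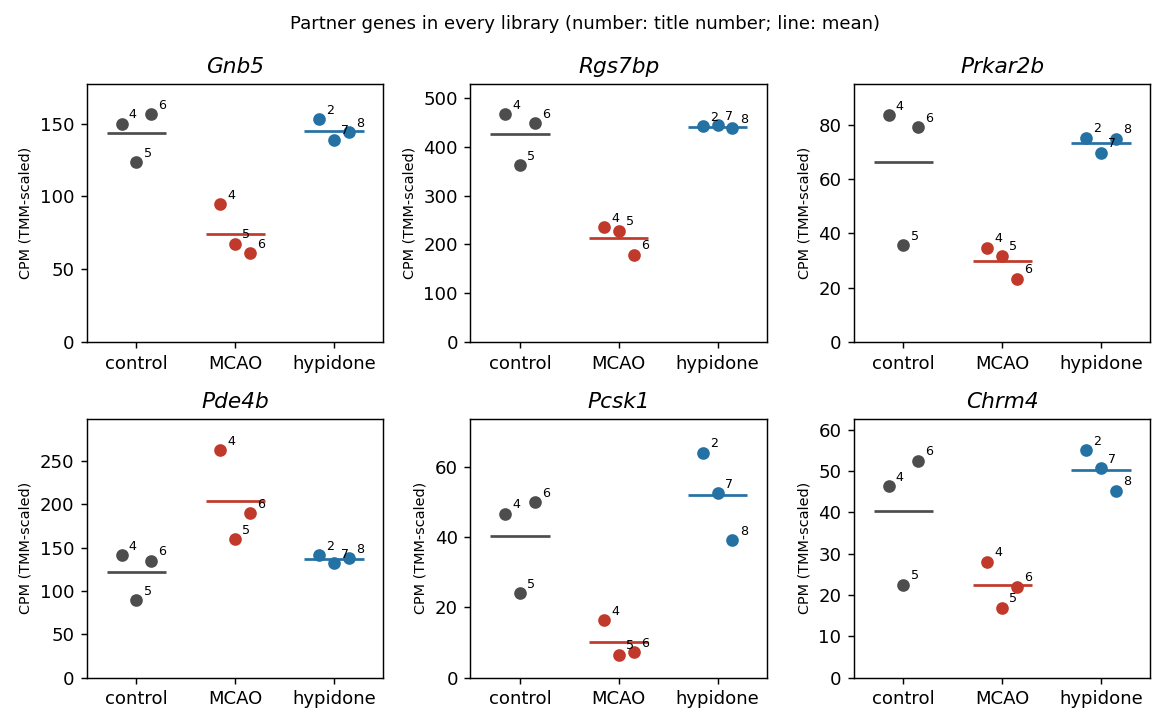
Levels of 6 pathway genes in every library (TMM-scaled CPM; points are libraries with title numbers, lines are group means). Pcsk1, Gnb5 and Rgs7bp are lower in all 3 MCAO libraries than in any other library.

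In the authors' deposited table of comparisons, 2 of the 9 genes had a q-value under 0.05 for MCAO against control and 4 for hypidone against MCAO. The authors' deposited table gives Tac1 fold changes of 0.214 (q = 0.000497) and 4.50 (q = 0.000664), and Penk 0.522 (q = 0.0141) and 2.46 (q = 0.00194). For hypidone against MCAO the authors' deposited table also lists Ppp1r1b at 0.588 (q = 0.0232) and Rgs9 at 0.566 (q = 0.0213), which did not pass in the edgeR fit.

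To find the genes with the most similar profile, the 9 members were averaged as centred log2 CPM in each library. The members' own Pearson correlation with that mean over 9 libraries ran from -0.478 for Rgs9 and -0.218 for Ppp1r1b to 0.719 for Penk and 0.909 for Tac1, so the mean mostly follows Tac1. The 8 genes outside the list closest to it were Evi5l at 0.975, LOC115489115 at 0.972, Wdr34 at 0.961, Ttbk1 at 0.957, Rnf157 at 0.953, Nfix at 0.952, Mpp2 at 0.949 and Sema4f at 0.947. These values describe 9 libraries that share groups and depth, and they were chosen as the highest of all genes tested.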

How the data were processed

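RNA sequencing of mouse brain gave 9 libraries in 3 groups of 3. The deposited files hold counts per gene, which the authors made, FPKM values that the authors deposited for the same libraries, and the authors' table of comparisons with fold changes (a ratio) and p-values and q-values. The submitters' processing notes name mm10 and DESeq2 without a role; no aligner, counter, strand setting or filter is stated there, and each is not given in the sources used here.

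Counts were filtered with edgeR's filterByExpr, scaled by TMM and fitted over all 9 libraries with edgeR's quasi-likelihood test (edgeR 4.0.16, R 4.3.3), with Benjamini-Hochberg adjustment over 14756 genes and a threshold of 0.05. FPKM served for levels between genes. The script was tested on simulated data. Alternatives were DESeq2 size factors, no filter, the DESeq2 1.42.0 Wald test, voom with quality weights (limma 3.58.1), limma on log2(FPKM + 1), only the groups compared, a replicate block, and leaving out each library.

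Named were all 9 members, the 2 genes with the lowest p per pathway list in each of the first 2 comparisons, the 8 most similar genes, and the top or near-absent cell markers. Other called pathway genes and the ratios were chosen after their values were seen. The members and lists were chosen with earlier results of these data known.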

Additional observations from a re-analysis of the deposited data

How the results depend on the processing

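The number of the 9 genes called in MCAO against control, 1, became 3 with DESeq2, 6 with voom quality weights, 0 with only the 2 groups and 0 with a replicate block, and ran from 0 to 3 when single libraries were left out. For hypidone against MCAO it was 2, and became 6 with voom and 0 to 4 with a library left out. The fits with a library left out called 7.26% to 28.5% of all genes in MCAO against control. In hypidone against MCAO they called 3.65% to 25.8%. Of the 67 pathway genes, the 9 called in MCAO against control became 17 with DESeq2, 38 with voom, 3 with only the 2 groups, 0 with the block and 3 to 20 with a library left out. The 9 of hypidone against MCAO became 14 with DESeq2, 38 with voom and 4 to 20. The voom fit called 50.3% and 51.7% of all genes in these comparisons and DESeq2 28.8% and 25.1%, so their higher counts are not particular to these lists; the cause was not tested. In hypidone against control 0 members and 0 pathway genes were called in each alternative. Tac1 kept its direction in all of its alternatives in both comparisons, and was called in 13 of 16 and 12 of 15. Control and MCAO share title numbers, and what the numbers mark is not stated. Deviations of same-numbered libraries from their group means had correlations of 0.118, 0.123 and -0.042. Those of differently numbered libraries ran from -0.151 to 0.124. So few values cannot decide whether the libraries were paired. With the replicate block, Tac1 was at -2.42 (adjusted p = 0.0866) and 0 of all 14489 genes tested were called. The Drd2 values rest on 11 to 93 counts per library and those of Adora2a on 22 to 72.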
